A study of Homo sapiens with 5 samples.

Results

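Tetraspanins are small proteins that cross the membrane several times and gather partner proteins into microdomains of the plasma membrane and of endosomes. CD151 binds laminin-binding integrins, CD9 and CD81 associate with immunoglobulin-superfamily partners such as IGSF8, and CD63 cycles through late endosomes, lysosomes and the vesicles that cells release. In motile cells the family is known for setting how adhesion receptors and surface proteases are held and recycled, and CD82 has been described as a suppressor of metastasis.

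The 10 genes described here are CD9, CD63, CD81, CD82, CD151, TSPAN3, TSPAN4, TSPAN9, TSPAN31 and TSPAN32, taken by symbol from the 27189 genes listed for each library. They belong to a family of which 33 genes were listed, and the other 23 are described further on. The members were selected on their read counts and levels: 9 have reads in every library, and TSPAN32, a tetraspanin known mainly from blood cells, was added for its reads in RM and HD. Its pattern is therefore given as a description. Levels alone do not define the list, since TSPAN5 and TSPAN17, at 78.7 and 67.2 TPM in LD, exceeded TSPAN3 at 28.5 TPM and are among the other 23. All 10 passed the filter, which asked for 1 TPM in any library (TPM is a level corrected for transcript length that sums to 1000000 over a library), TSPAN32 only through RM and HD.

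The cells were HT1080, an established human fibrosarcoma line, embedded in type I collagen at 2 mg per ml and kept there for 24 h. LD was the untreated low-density culture of 10 cells per cubic millimetre. IL-6 and IL-8 were low-density cultures given recombinant IL-6 or recombinant IL-8, RM was the low-density culture given both in a ratio of 5:2, and HD was an untreated culture of 50 cells per cubic millimetre. The comparisons ask whether the combined cytokines or a higher density altered expression. Every condition was a single library of a single cell line from 1 sequencing experiment, so no difference below has a replicate check, and every interval covers the counting of reads only. The cDNA was amplified as a whole pool and no molecular identifiers are described, so reads are not taken as independent molecules.

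Between 926376 reads (HD) and 7118545 reads (LD) were assigned to genes in a library. A single ribosomal gene, RNA5-8S5, took 51.5% of the reads in HD and 76.9% to 79.6% elsewhere, which left 449661 reads outside it in HD and 1100967 to 1645539 in the low-density libraries. The HD library stood apart in its content. Of 368 olfactory receptor genes, which this cell type does not use, 226 had a read in HD against 10 to 32 in the others, at a median of 4.70 TPM in HD. All 6 mesenchymal markers with data (VIM, FN1, LGALS1, COL6A1, MMP14 and AXL) had reads in every library, with a summed level of 4698 to 7178 TPM at low density and 1062 TPM in HD. Of 8 leukocyte markers, 0 had a read in RM, 1 to 3 in LD, IL-6 and IL-8, and all 8 in HD. Of 5 epithelial markers, 2 to 3 had a read at low density and all 5 in HD. Each HD value below is given beside the low-density values, and counts are given with HD as a separate comparison. In bulk samples, fewer cells of a type and less RNA per cell cannot be told apart.

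Promoter windows were read from a set of RefSeq promoters (assembly GRCh38.p14). In that set 5 members were matched, CD9, CD63, CD82, TSPAN4 and TSPAN31, in 19 windows of 250 bases before a start, several of which overlap. CD81, CD151, TSPAN3, TSPAN9 and TSPAN32 had no window in the set and are not described here. Motifs were searched on both strands. The GC box GGGCGG was in 12 of the 19 windows, against 42.6% of all 35116 windows. The TATA motif TATAAA was in 0 of 19 against 10.7%, and TTCNNNGAA, the core of STAT sites and so of IL-6 signalling, in 2 of 19 against 6.57%. A match is only a description of the letters. The windows below are shown as examples of 2 abundant members whose levels were lower in HD than in LD, CD63 and CD82, and of a member scarce in every library, TSPAN31. They lie at chr12:55729010-55729259 on the minus strand for CD63, chr11:44565413-44565662 on the plus strand for CD82 and chr12:57744789-57745038 on the plus strand for TSPAN31, each written 5′ to 3′ with the GC boxes in capitals.
CD63: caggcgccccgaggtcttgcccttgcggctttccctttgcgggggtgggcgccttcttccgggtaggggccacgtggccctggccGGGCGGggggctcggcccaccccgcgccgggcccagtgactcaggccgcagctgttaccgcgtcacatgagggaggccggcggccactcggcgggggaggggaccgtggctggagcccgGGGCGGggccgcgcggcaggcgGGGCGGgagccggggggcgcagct
CD82: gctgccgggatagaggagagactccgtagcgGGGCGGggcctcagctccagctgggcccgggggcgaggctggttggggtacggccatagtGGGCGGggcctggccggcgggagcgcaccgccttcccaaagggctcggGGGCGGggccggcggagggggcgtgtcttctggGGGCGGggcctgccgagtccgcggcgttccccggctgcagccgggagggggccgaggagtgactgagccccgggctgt
TSPAN31: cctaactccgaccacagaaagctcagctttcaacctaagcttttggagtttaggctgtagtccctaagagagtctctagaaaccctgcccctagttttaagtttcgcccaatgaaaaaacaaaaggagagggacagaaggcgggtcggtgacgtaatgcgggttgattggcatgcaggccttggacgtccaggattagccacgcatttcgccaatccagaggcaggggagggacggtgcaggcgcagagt
The CD63 window holds 3 GC boxes and 30 CpG sites, the CD82 window 4 and 26, and the TSPAN31 window 0 and 11, where 11 is also the median number of CpG sites over all windows. The CD63 window is the first listed of 8 and has the most CpG sites of them, and the others hold 4 to 26, with no GC box in 3. GC boxes did not separate abundant from scarce members, since CD9, a scarce member, had 0, 6, 3 and 0 in its 4 windows, with 10, 28, 29 and 1 CpG sites.

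CD63 was the most abundant member in every library. Its level was 1412 TPM in LD, 1064 with IL-6, 1289 with IL-8, 1419 with RM and 260.4 in HD, on 1754, 909, 1179, 1756 and 53 reads. CD63 alone made up 53.0% to 68.3% of the summed level of the 10 members at low density and 46.8% in HD. The 4 low-density libraries lay within 1.33-fold of each other, a range of 0.41 on the log2 scale, and HD lay below all of them. Scaled by the median ratio of the genes detected in every library, the same libraries lay within 2.26-fold.

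CD151, the integrin-binding member, came next in every library, at 329 TPM in LD, 379 with IL-6, 251 with IL-8, 293 with RM and 115 in HD, on 669, 524, 380, 571 and 40 reads. Its counting interval did not overlap that of CD63 in any library, and overlapped that of the next gene only in HD. CD81, which carries IGSF8 and other partners at the cell surface, stood at 236 TPM in LD, 218 with IL-6, 103 with IL-8, 209 with RM and 61.5 in HD, on 476, 303, 156, 408 and 21 reads. IL-8 was thus the low library among the 4 at low density for CD81.

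TSPAN4, a member associated with the migrasomes that moving cells leave behind, was at 178 TPM in LD, 201 with IL-6, 114 with IL-8, 225 with RM and 38.7 in HD, on 322, 251, 156, 400 and 12 reads. IL-8 was again the lowest of the low-density libraries and RM the highest. TSPAN4 and CD81 changed places between libraries, and their intervals overlapped in IL-6, IL-8, RM and HD but not in LD. CD82 was at 107 TPM in LD, 104 with IL-6, 76.6 with IL-8, 71.7 with RM and 21.9 in HD, on 247, 159, 126, 160 and 9 reads. TSPAN3 was at 28.5 TPM in LD, 17.2 with IL-6, 25.6 with IL-8, 36.2 with RM and 10.3 in HD, on 154, 64, 103, 187 and 9 reads. For TSPAN3, IL-6 was the low library and RM the high library at low density.

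The remaining members were scarce. TSPAN9 had 43 reads in LD, 42 with IL-6, 95 with IL-8, 15 with RM and 11 in HD, or 7.12, 10.1, 20.9, 2.57 and 10.8 TPM. CD9, which works with CD81 in cell fusion and adhesion, had 9 reads in LD, 14 with IL-6, 7 with IL-8, 2 with RM and 2 in HD, or 5.14, 11.8, 5.37, 1.18 and 7.74 TPM. TSPAN31 had 9 reads in LD, 3 with IL-6, 4 with IL-8, 4 with RM and 3 in HD, or 3.59, 1.51, 1.80, 1.91 and 6.23 TPM. TSPAN9 and CD9 were highest in IL-8 and IL-6 respectively and lowest in RM, whereas the TSPAN31 intervals overlapped in all libraries. TSPAN31 also overlaps CDK4 by 2485 bases and AGAP2 by 4145 bases on the opposite strand (GENCODE 29, GRCh38), and the library kit does not mark strand. AGAP2 had 12, 11, 6, 585 and 14 reads in the same order of libraries, so its large RM count was not accompanied by TSPAN31 reads.

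**Figure D1:**
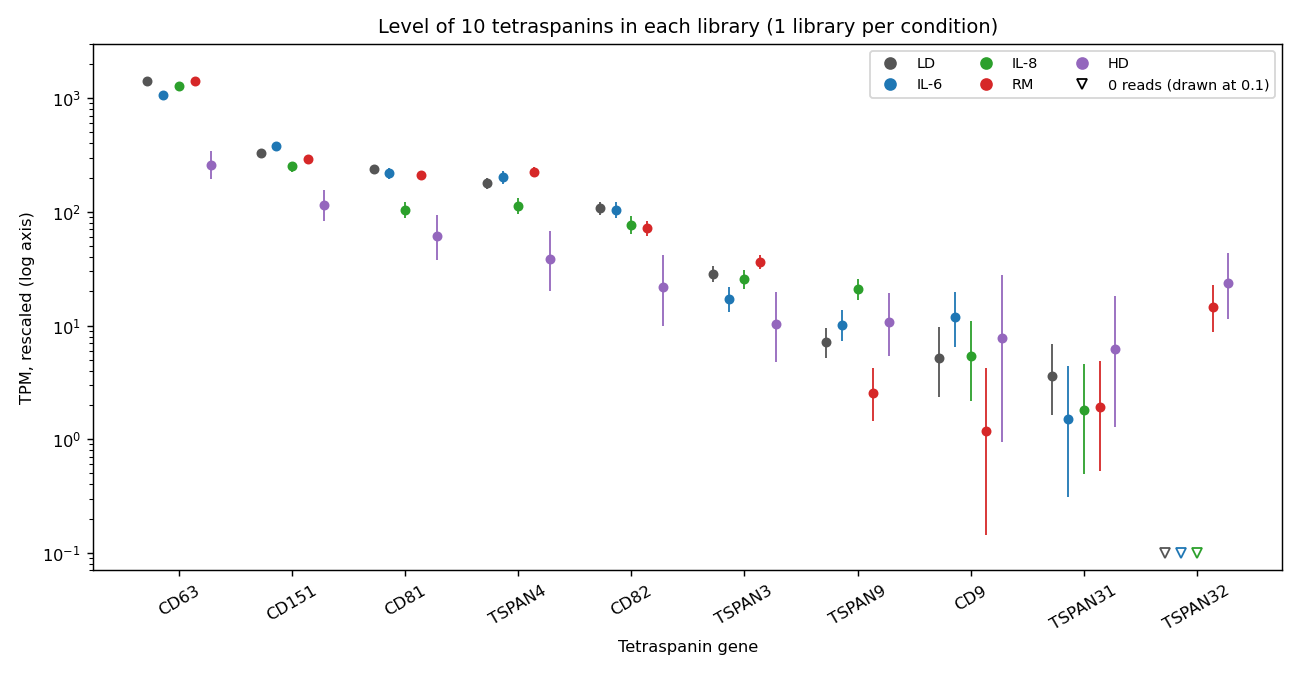
Level of each of the 10 tetraspanins in TPM (log axis), with LD, the 3 cytokine libraries and HD each a single library. Points are levels, bars are exact Poisson 95% counting intervals, and open triangles mark libraries with 0 reads, drawn at 0.1 TPM. CD63 tops every library at 260.4 to 1419 TPM, HD is the lowest library for the 6 abundant members, and TSPAN32 has points only in RM and HD.

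The members also differed in how much they varied at low density. The range of log2(TPM + 1) over LD, IL-6, IL-8 and RM was 0.41 for CD63, 0.58 for CD82, 0.60 for CD151, 0.87 for TSPAN31, 0.98 for TSPAN4, 1.03 for TSPAN3, 1.18 for CD81, 2.56 for CD9, 2.62 for TSPAN9 and 3.97 for TSPAN32. The median range was 1.53 over the 6962 genes that reached 10 TPM in any low-density library, of which 24.7% had a range under 1. The place of the scarce TSPAN31 in this order depends on the pseudocount of 1, since its range was 1.19 with a pseudocount of 0.1 and 0.40 with 5. By TPM alone its highest low-density level was 2.37 times its lowest, against 2.28 times for CD81. Median-ratio scaling widened the range of CD63 to 1.17 and of TSPAN3 to 1.76 and narrowed that of CD82 to 0.23, so which abundant member varied least depends on the scaling. The 10 members together made up 0.231% of all TPM in LD and 0.227% in RM, 0.201% and 0.189% in the IL-6 and IL-8 libraries, and 0.0556% in HD.

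Differences between libraries were taken on the log2(TPM + 1) scale, which understates changes of scarce genes, and a difference of at least 1 was counted. Beside them stand ratios of read shares outside RNA5-8S5 with exact 95% counting intervals. Median-ratio scaling, which centres the genes detected in all libraries, adds 0.73 to the RM minus LD differences of abundant genes, adds 0.45 to IL-8 minus LD and takes 0.44 from HD minus LD, and it is named beside the results it alters. The comparisons with LD share the LD library.

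With IL-6 alone, 1 of the 10 members passed the threshold, against 17.3% of the 21163 genes tested. This was CD9, with a log2 difference of 1.06. Its read share was 2.32 times that in LD (0.937 to 6.09), an interval that includes equal shares. TSPAN3 differed by -0.69, with a ratio of 0.621 (0.457 to 0.837). The median over the members was -0.03, and over all genes tested 0.

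With IL-8 alone, 2 of 10 passed, against 24.4% of all genes. TSPAN9 was higher by 1.43 log2 units, with a ratio of 3.24 (2.24 to 4.77). CD81 differed by -1.18, with a ratio of 0.481 (0.399 to 0.578), and by -0.74 with median-ratio scaling, which leaves TSPAN9 alone past the threshold. The median over the members was -0.27, and the IL-8 minus LD differences of CD63, CD151 and TSPAN3 (-0.13, -0.39 and -0.15) turned positive with median-ratio scaling, to 0.32, 0.06 and 0.28.

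In RM, 3 of 10 members passed against 26.8% of all genes, namely TSPAN32, TSPAN9 and CD9. TSPAN9 differed by -1.19, with a ratio of 0.400 (0.207 to 0.735). The difference of CD9 was -1.50, on 2 reads against 9, with a ratio of 0.255 (0.0268 to 1.23) that includes equal shares. The 6 abundant members lay between -0.58 (CD82) and 0.34 (TSPAN3), and CD63 differed by 0.01 (0.74 with median-ratio scaling). With median-ratio scaling 4 members passed instead. TSPAN3 at 1.05, TSPAN4 at 1.06 and TSPAN32 at 4.52 were then higher and CD9 at -1.03 lower, TSPAN9 was at -0.62, and the differences of CD81, CD82 and CD151 changed sign from -0.18, -0.58 and -0.16 to 0.56, 0.15 and 0.57. Over all genes the same choice moved the split from 1362 higher and 4317 lower to 2724 higher and 2411 lower, and for IL-8 against LD from 1691 and 3470 to 2566 and 2258.

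RM was next set beside each cytokine alone. Against IL-6, 4 of 10 members passed, where 29% of all genes did. TSPAN3 was higher by 1.03, with a ratio of 2.24 (1.68 to 3.03). CD9 differed by -2.56, with a ratio of 0.110 (0.0121 to 0.477), and TSPAN9 by -1.64, with a ratio of 0.274 (0.141 to 0.505). TSPAN32 was the other gene past the threshold, and median-ratio scaling added CD63, at 1.17.

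Against IL-8, 4 of 10 passed, where 24.8% of all genes did. CD81 was higher in RM by 1.01, with a ratio of 2.04 (1.69 to 2.47), and TSPAN4 lay just short of the threshold at 0.98, with a ratio of 2.00 (1.66 to 2.43), and past it at 1.26 with median-ratio scaling. TSPAN9 differed by -2.62, with a ratio of 0.123 (0.0664 to 0.214), and CD9 by -1.55 on 2 reads against 7, with an interval of 0.0226 to 1.17 that includes equal shares. TSPAN32 again passed. TSPAN9 therefore held its lowest level in RM and its highest in IL-8, and CD9 its lowest in RM and its highest in IL-6.

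In HD, 7 of 10 members passed against 79.7% of all genes, but the directions differed. Of these, 6 were lower, where 17.9% of all genes were, and TSPAN32 was higher, where 61.9% were. Those 6 are the members with at least 10 TPM in LD, and of all 5534 genes at that level in LD 53.5% were lower in HD by the threshold. CD63 differed by -2.43, with a ratio of 0.111 (0.0825 to 0.145). CD82 differed by -2.24, with a ratio of 0.133 (0.0603 to 0.257), and TSPAN4 by -2.17, with a ratio of 0.136 (0.0697 to 0.242).

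CD81, CD151 and TSPAN3 were the nearer to LD of these 6. CD81 differed by -1.92, with a ratio of 0.161 (0.0990 to 0.250). CD151 differed by -1.50, with a ratio of 0.219 (0.155 to 0.301), and TSPAN3 by -1.38, with a ratio of 0.214 (0.0960 to 0.417). For the scarce members the intervals of the HD to LD ratio included equal shares, at 0.936 (0.435 to 1.85) for TSPAN9, 0.813 (0.0855 to 3.93) for CD9 and 1.22 (0.212 to 4.89) for TSPAN31. On the log2(TPM + 1) scale these 3 differed by 0.53, 0.51 and 0.66, so the direction for TSPAN9 and CD9 depends on the measure. The median difference was -1.44 over the members and 1.86 over all genes tested, and the direction of all 6 held with each scaling. The mesenchymal markers were lower in HD by the threshold in 4 of 6 cases, with a median of -1.43. The part of the library's content in these differences was not tested.

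**Figure D2:**
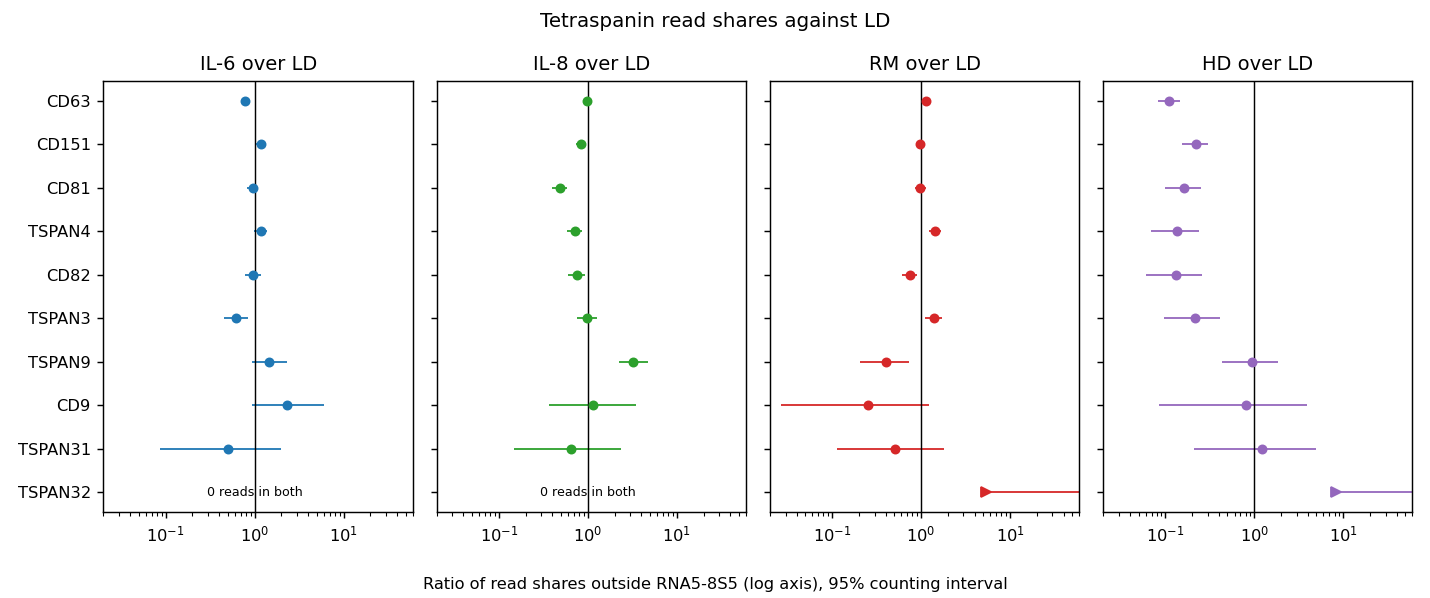
Ratio of each tetraspanin's share of the reads outside RNA5-8S5 in IL-6, IL-8, RM and HD to that in LD (log axis), with exact 95% counting intervals as bars and equal shares as the vertical line. Arrowheads for TSPAN32, which had 0 reads in LD, mark the lower ends of the same intervals, 5.35 in RM and 8.20 in HD. The 6 abundant members lie at 0.111 to 0.219 in HD, and TSPAN9 lies on opposite sides of the line in IL-8 and RM.

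TSPAN32, also known as PHEMX or TSSC6, had 0 reads in LD, 0 with IL-6, 0 with IL-8, 19 with RM and 10 in HD. A count of 0 allows up to 3 reads, or 1.82, 2.72 and 2.68 per 1000000 reads outside RNA5-8S5 in LD, IL-6 and IL-8. Its level was 14.7 TPM in RM (8.82 to 22.9) and 23.6 TPM in HD (11.3 to 43.4). Set against that floor of 3 reads in each library, the read share in RM came to 7.27 times that in LD, 4.86 times that in IL-6 and 4.95 times that in IL-8. With the counting error of the 19 reads included, by the exact interval used for the other ratios, it was at least 5.35-fold, 3.58-fold and 3.65-fold higher. In HD the share was 12.2, 8.16 and 8.31 times the floor of the same 3 libraries, and by the exact interval at least 8.20-fold, 5.49-fold and 5.59-fold higher. The HD share was 1.68 times that in RM (0.697 to 3.79), an interval that includes equal shares. On the log2(TPM + 1) scale the differences from LD were 3.97 in RM and 4.62 in HD, values that depend on the pseudocount.

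Beside the abundant members TSPAN32 remained a small part of the total. It ranked 7th of 10 in RM, below TSPAN3 and above TSPAN9, and 5th in HD, between TSPAN4 and CD82. Its interval overlapped those of both neighbours in HD and of neither in RM. It made up 0.645% of the members' summed TPM in RM and 4.24% in HD. By reads these shares were 0.539% of 3522 member reads in RM (exact binomial 95% interval, 0.325% to 0.841%) and 5.88% of 170 in HD (2.86% to 10.6%). The summed level of the members behind these shares was 2274 TPM in RM and 556 TPM in HD. Among all genes tested it stood at the 82.6th percentile of level in RM and the 70.7th in HD.

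Genes with no reads in LD, IL-6 and IL-8 numbered 9990. Of these, 325 (3.25%) had a read in RM and 4371 (43.8%) had a read in HD. With at least 19 reads in RM there were 9, with at least 10 in HD there were 548 (5.49%), and 2 genes, TSPAN32 and PTCHD1, met both limits. These limits are the counts of TSPAN32 itself, so it meets them by construction, and LOC100288123, at 18 and 7 reads, fell just short. The same kind of gene, with at least 19 reads in a single low-density library and none in the others, numbered 10 where that library was LD, 7 where it was IL-6, 5 where it was IL-8 and 9 where it was RM. All 8 leukocyte markers were at 0 in RM, where TSPAN32 had its 19 reads. In HD all 8 had reads, at a summed level of 173 TPM, and the part of that in the HD count of TSPAN32 was not tested. LILRB3, a leukocyte receptor gene outside those 8, had 6 reads in LD, 4 with IL-6, 8 with IL-8, 105 with RM and 47 in HD.

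The genes whose profile over the 5 libraries was nearest to that of TSPAN32, by Euclidean distance between centred log2(TPM + 1) values among 15189 genes, were PTCHD1, LOC100288123 and C1QTNF6, at distances of 0.698, 0.702 and 0.761. PTCHD1 had 24 reads in RM and 16 in HD, LOC100288123 had 18 and 7, and both had 0 reads in LD, IL-6 and IL-8. C1QTNF6 had reads throughout, with 20 in LD, 14 with IL-6, 8 with IL-8, 253 with RM and 78 in HD. The measure weighs difference from a gene's own mean, so that C1QTNF6 came close at a higher level, 59.2 TPM in RM and 80.6 in HD.

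TSPAN32 lies on chromosome 11 of GRCh38 at 2301997 to 2318200 on the plus strand, with 17 transcripts of 411 to 3325 bases in GENCODE 29. The submitters' notes name GRCh37 and hg19, so these positions serve only to name neighbours. TSPAN32 overlaps C11orf21, on the opposite strand, by 1053 bases. C11orf21 had 0 reads in LD, IL-6, IL-8 and RM and 4 in HD, so the deposited counts gave it no share of the RM reads. CD81 begins 57976 bases further along and did not follow TSPAN32, with 476 reads in LD against 408 in RM. ASCL2, a transcription factor gene on the other side, had 0 reads at low density and 2 in HD.

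TSSC4, which lies beyond CD81, had 20 reads in LD, 38 with IL-6, 51 with IL-8, 101 with RM and 16 in HD. Its RM minus LD difference was 2.44, with a read ratio of 5.79 (3.56 to 9.89), its differences were 1.41 in IL-6 and 1.79 in IL-8, and in HD it was 2.06 with a ratio of 2.93 (1.42 to 5.95). Unlike TSPAN32, TSSC4 was therefore detected in all 5 libraries and higher in each of the 4 others than in LD. On the same arm, CD151 and TSPAN4 lie 2976 bases apart. CD151 overlaps POLR2L, an RNA polymerase subunit gene, by 2476 bases, and POLR2L had 126, 98, 72, 89 and 11 reads from LD through the cytokine libraries to HD. CHID1, next to TSPAN4, had 167, 162, 142, 188 and 10. CDK4, the cell cycle kinase gene that overlaps TSPAN31, had 434, 402, 194, 192 and 71, with an RM minus LD difference of -1.12 (-0.40 with median-ratio scaling).

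**Figure D3:**
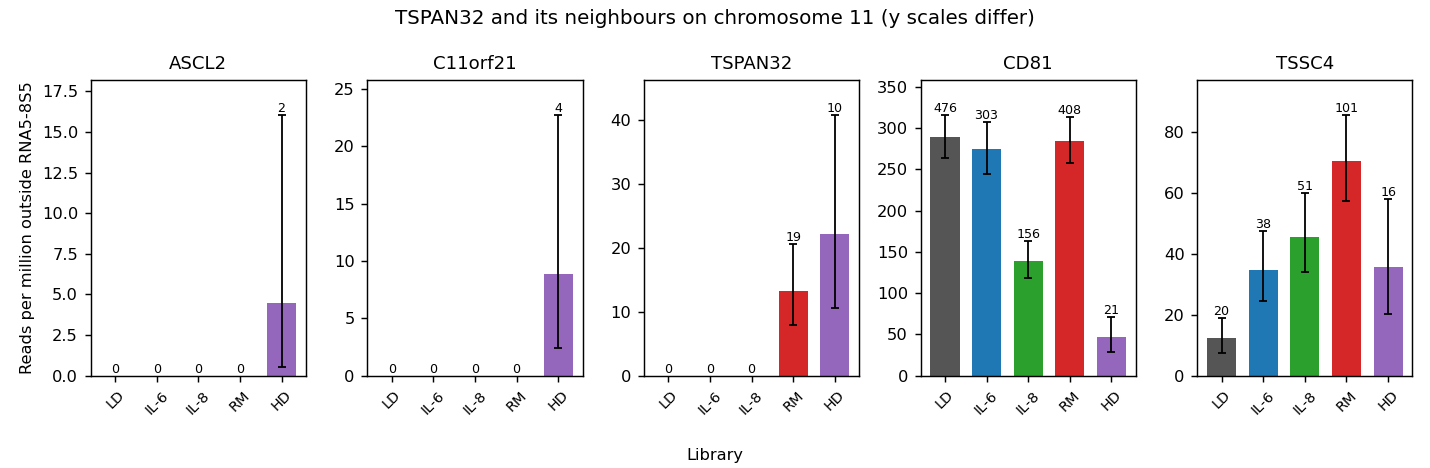
Reads of each gene per 1000000 reads outside RNA5-8S5, for TSPAN32 and 4 neighbouring genes on chromosome 11 in each library, with exact Poisson 95% counting intervals on counts above 0, the number of reads above each bar, and a separate y scale for each gene. TSPAN32 has 19 reads in RM and 10 in HD and 0 elsewhere, C11orf21 and ASCL2 have reads only in HD, and CD81 and TSSC4 have reads in every library.

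The length that the deposited values imply for TSPAN32 differed between the libraries that detected it. Reads divided by TPM is proportional to the transcript length used in the quantification. Relative to CD63 this quotient was 1.05 in RM and 2.08 in HD for TSPAN32, a ratio of 1.99. For the other members with reads, except CD63 itself, the highest quotient over the 5 libraries was 1.05 to 1.44 times the lowest. Of 4195 genes with at least 10 reads in both RM and HD, 264 (6.29%) had a change between them at least as large in either direction. The median HD to RM ratio of the quotient was 1.07, in which rises and falls offset each other, so it is not the typical size of a change. The reads of TSPAN32 in RM and in HD were thus credited to transcripts of different average length.

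The rest of the family gave a second view of the same libraries. Of the 23 other tetraspanins, 15 had a read in LD, 14 with IL-6, 9 with IL-8, 9 with RM and 19 in HD. The largest at low density belong to the TspanC8 group, which escorts the protease ADAM10 to the cell surface. TSPAN5 had 336 reads in LD, 114 with IL-6, 98 with IL-8, 527 with RM and 8 in HD, or 78.7, 39.1, 29.9, 129.8 and 9.93 TPM. TSPAN14 had 212, 115, 94, 370 and 27 reads, or 26.7, 22.0, 16.9 and 49.8 TPM at low density. Both were lower in each single-cytokine library than in RM. The RM minus IL-6 difference was 1.71 for TSPAN5 and 1.15 for TSPAN14, and the RM minus IL-8 difference 2.08 and 1.51, with read ratios of 3.55 (2.89 to 4.38), 2.47 (2.00 to 3.07), 4.20 (3.38 to 5.27) and 3.08 (2.45 to 3.90).

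TSPAN17, another TspanC8 gene, was lower than in LD with each cytokine, as TSPAN5 and TSPAN14 were, but was also lower with RM and stood out in HD. For TSPAN14 the IL-6 to LD ratio, 0.811 (0.640 to 1.02), includes equal shares. TSPAN17 had 246 reads in LD, 70 with IL-6, 39 with IL-8, 37 with RM and 9092 in HD, or 67.2, 28.4, 14.2, 10.8 and 15197 TPM. In HD it was the second gene by level and the third by reads, took 2.02% of the reads outside RNA5-8S5 and made up 93.6% of the family's TPM. The HD share was 135 times that in LD (119 to 154). With TSPAN17 in the sum, the 33 family genes came to 2518 TPM in LD and 16230.5 TPM in HD, the reverse of the order of the 10 members. The RM minus LD difference of TSPAN17 was -2.53 (-1.84 with median-ratio scaling), with a read ratio of 0.173 (0.119 to 0.245).

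TSPAN10, also of the TspanC8 group and known from pigment cells, had 35, 51, 22, 16 and 94 reads, or 15.9, 45.4, 16.4, 6.78 and 224 TPM, in the same order of libraries. It was highest in HD and lowest in RM. TSPAN12, a member of the Norrin receptor complex, had 12, 6, 27, 6 and 3 reads, with IL-8 the high library and an IL-8 to LD ratio of 3.30 (1.62 to 7.16). ROM1, a photoreceptor tetraspanin, had 14, 23, 15, 0 and 13 reads, and by the exact interval its share in RM was at least 2.89-fold lower than in LD (4.07-fold against the floor of 3 reads). The leukocyte tetraspanins stayed at low counts. CD37 had 4 reads in LD, 2 with IL-6, 0 with IL-8, 2 with RM and 17 in HD, and CD53 had 2, 4, 1, 2 and 2, so neither accompanied TSPAN32 in RM.

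Over the 19 other tetraspanins that passed the filter, 3 were higher and 2 lower in IL-6 than in LD, 1 and 3 in IL-8, 0 and 5 in RM, and 15 and 1 in HD. The matching shares of all genes were 9.84% higher and 7.47% lower in IL-6, 7.99% and 16.4% in IL-8, 6.44% and 20.4% in RM, and 61.9% and 17.9% in HD. With median-ratio scaling the counts became 2 higher and 3 lower in IL-6, 1 and 2 in IL-8 and 2 and 4 in RM, and the HD count was again 15 and 1. In HD, TSPAN5 was the 1 other tetraspanin lower by the threshold, at -2.87, as the 6 abundant members were. TSPAN14 lay at -0.33, or -1.09 on the CPM scale (reads outside RNA5-8S5 scaled to 1000000), while TSPAN17 and TSPAN10 were higher by 7.80 and 3.73.

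**Figure D4:**
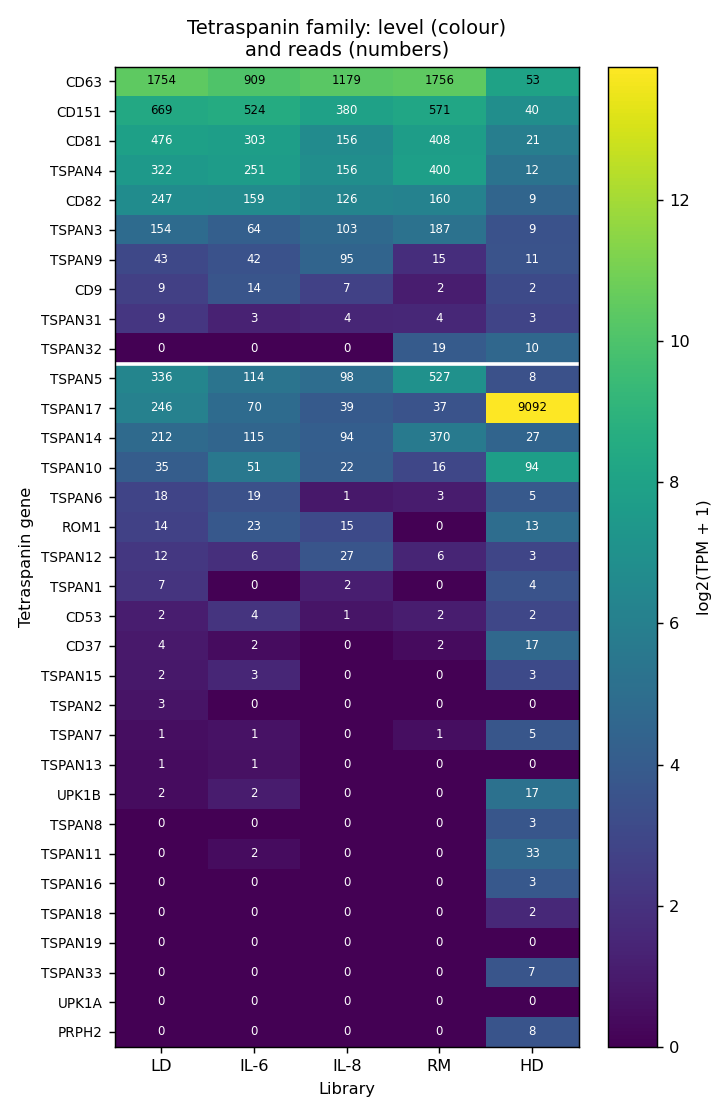
Level of all 33 tetraspanin genes in each library as log2(TPM + 1) in colour, with the number of reads in each cell. The 10 members are above the white line and the other 23 below, ordered by their level in LD. The TSPAN17 cell in HD, on 9092 reads, is the highest, and the lower rows hold reads mainly in HD.

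Tetraspanins act through the proteins they hold, and 25 listed partners were measured. In IL-6, 1 was higher and 3 lower than in LD, where 9.84% and 7.47% of all genes were. In IL-8 these counts were 0 and 5, beside 7.99% and 16.4% of all genes. In RM they were 1 and 8, beside 6.44% and 20.4%, and 35.6% of the genes with at least 10 TPM in LD were lower in RM. In HD they were 7 and 12, beside 61.9% and 17.9%. The median difference in RM was -0.69, against 0 over all genes tested. With median-ratio scaling the counts became 2 higher and 3 lower in IL-8, 1 and 3 in RM and 5 and 14 in HD, and the median in RM was -0.06, so the number of partners called lower in RM depends on the scaling. Integrin beta 1 (ITGB1), a chain shared by several integrins bound by CD151, is given as a level reference and had 343 reads in LD and 339 in RM. Of the other listed integrin chains, ITGA6 had 325 and 149 reads, or 43.0 TPM (38.5 to 48.0) and 19.7 TPM (16.7 to 23.1). ITGA3 had 1454 and 1120 reads in LD and RM, ITGA7 11 and 0, and ITGB4 6 and 9.

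IGSF8, the direct partner of CD9 and CD81, had 36 reads in LD, 23 with IL-6, 13 with IL-8, 0 with RM and 6 in HD. By the exact counting interval its share in RM was at least 8.08-fold lower than in LD, at least 7.49-fold lower than in IL-6 and at least 3.90-fold lower than in IL-8. The floor of 3 reads in RM alone would give 10.5-fold, 9.99-fold and 5.55-fold. The partner was therefore undetected in the library in which CD81 had 408 reads and CD9 had 2. ADAM10, the protease carried by TspanC8 proteins, had 59 reads in LD, 19 with IL-6, 14 with IL-8, 10 with RM and 3 in HD. Its RM minus LD difference was -2.10 (-1.55 with median-ratio scaling), with a ratio of 0.194 (0.0887 to 0.383). ADAM10 thus had its fewest low-density reads in RM, where TSPAN5 and TSPAN14 had their most, although its RM to IL-8 ratio of 0.558 (0.222 to 1.35) includes equal shares.

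PDCD6IP (ALIX), which acts in the sorting of CD63 into vesicles, had 161, 143, 70, 45 and 3 reads from LD through the cytokine libraries to HD, with an RM to LD ratio of 0.321 (0.225 to 0.449). MMP14, a membrane protease that cleaves collagen, had 1168, 694, 669, 410 and 54, with a ratio of 0.403 (0.359 to 0.451). EGFR had 114, 73, 44, 52 and 20, with a ratio of 0.523 (0.369 to 0.733), and CD44, the hyaluronan receptor, had 435, 322, 191, 186 and 15, with a ratio of 0.491 (0.411 to 0.584). The log2 differences were -1.59, -1.45, -1.25 and -1.15 in that order, and -0.93, -0.73, -0.58 and -0.44 with median-ratio scaling, so the direction held and the threshold was missed. Over the same pair of libraries CD63, CD81 and CD151 had ratios of 1.15 (1.07 to 1.23), 0.983 (0.859 to 1.12) and 0.979 (0.874 to 1.10).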

How the data were processed

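RNA-seq of 5 HT1080 cultures was analysed, with 1 library per condition, grouped by the sample titles. The authors primed cDNA on poly-A, amplified the whole pool with phi29 polymerase and made libraries with a Nextera XT kit. The submitters' processing notes name CASAVA 1.4, FastQC, Bowtie, Bowtie2 2.3.1, RSEM 1.2.25 and the builds GRCh37 and hg19. The gene annotation is not given in the sources used here. The authors deposited a whole-number read count for each gene, not normalized. The authors also deposited TPM, corrected for transcript length and library total, and these were rescaled here to 1000000 per library.

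The comparison covered the 21163 genes that reached 1 TPM in any library. Values were compared as log2(TPM + 1) with a threshold of 1, and no test between conditions is possible with 1 library each. Read ratios used reads outside RNA5-8S5 with exact conditional (Clopper-Pearson) 95% intervals, and levels exact Poisson intervals. The floor was 3 reads per library. Scripts (Python 3.11.15, scipy 1.17.1) were tested on simulated data.

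The members and all lists were chosen with earlier results of these data known. Named genes are the 10 members, other tetraspanins with at least 10 TPM in a low-density library, CD37, CD53, up to 6 partners past the threshold between RM and LD with at least 10 TPM in either and an interval excluding equal shares, listed chromosomal neighbours and the 3 nearest profiles. AGAP2, LILRB3, ITGB1 and the other integrin chains were added after their values were seen, as were the counts over genes with at least 10 TPM in LD. CAV1 and PI4K2A, from the marker and partner lists, were not used here. A planned protein comparison was not made, and a cell-free collagen control was not analysed here. Alternatives were pseudocounts of 0.1 and 5, CPM, median-ratio scaling, a threshold of 2 and other filters.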

Additional observations from a re-analysis of the deposited data

How the results depend on the processing

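Each count of members at least 1 log2 unit apart was recomputed with other settings. Against LD, the count for IL-6 was 1 and became 2 with a pseudocount of 0.1, 0 with a pseudocount of 5 and 0 with a threshold of 2. For IL-8 it was 2 and became 1 with median-ratio scaling and 0 with a threshold of 2. For RM it was 3 and became 4 with median-ratio scaling, 1 with a pseudocount of 5 and 1 with a threshold of 2. For HD it was 7 and became 4 with a threshold of 2. Against IL-6 and against IL-8 the RM count was 4 and became 5 with median-ratio scaling, 2 with a pseudocount of 5 and 2 with a threshold of 2. Of 240 log2 differences of members recomputed, 37 moved by more than the distance from the read ratio to the end of its counting interval (for TSPAN32, of its own read count), 23 of them with median-ratio scaling, and 0 of those past the threshold changed sign. The RM minus LD difference of TSPAN32 was 7.21 with a pseudocount of 0.1 and 1.97 with a pseudocount of 5. The share of all genes past 1 log2 unit between RM and LD was 26.8%, 20.9% with no filter and 31.2% with at least 10 TPM in a library. Chosen after seeing the data, it was 42.6% with at least 10 TPM in LD and 39.8% with at least 1 TPM in a low-density library. No paired analysis was possible because each condition has 1 library, and for the same reason no replicate could be left out. Depth limits TSPAN9, CD9, TSPAN31 and TSPAN32 most, and HD, with 170 member reads, more than the other libraries.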
